A study of Rattus norvegicus with 12 samples.

Results

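The CC chemokines are small secreted proteins, named for a pair of neighbouring cysteines, that draw leukocytes out of the blood by binding receptors of the Ccr family. The 10 genes Ccl2, Ccl3, Ccl4, Ccl5, Ccl6, Ccl7, Ccl9, Ccl11, Ccl19 and Ccl21 were taken by name, with earlier results of these data known. Every array probe whose RefSeq transcript belongs to one of them was used. Each gene had 1 probe, so they made up 10 of the 20425 features tested and 10 of the 15154 gene symbols on the array. Of the features tested, 12036 have a gene symbol and the rest do not, and all are counted as genes below. All 10 were well above background on all 12 arrays, so none entered or left the test through a filter on dim signals.

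RNA came from the bladder body of 12 male Fischer 344 rats, 1 animal per array, in 3 groups of 4. Old restricted rats were 25 to 28 months old and had been fed on 3 days a week since the age of 6 weeks, which lowered their intake by about 40%. Old freely fed rats had the same range of ages and young freely fed rats were 6 months old, both with normal food at will. All animals were of 1 strain and 1 sex. By its title, the series is about inflammation and oxidation in the ageing bladder and how far restriction prevents them.

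CC chemokines fall into functional groups by the receptor they engage. Ccl2 and Ccl7 are the monocyte chemoattractants, which act on Ccr2. Ccl3, Ccl4 and Ccl5 attract T cells, NK cells and monocytes, and Ccl3 and Ccl5 act on Ccr1. In the mouse Ccl6 and Ccl9 are myeloid products that act on Ccr1. Ccl11, or eotaxin, attracts eosinophils through Ccr3, while Ccl19 and Ccl21 are made by lymphoid stroma and lymphatic vessels and guide T cells and dendritic cells through Ccr7. Bladder stroma, urothelium and resident macrophages can make inflammatory members of the family when tissue is irritated. In a whole-tissue sample, fewer cells of a type and less RNA per cell cannot be told apart.

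Levels are log2 processed signals minus the 75th percentile of the same array, so a level of 0 is the brightness at that percentile. They compare animals for 1 gene, not genes with each other. Changes are differences of such levels, tested with limma over all 20425 genes with Benjamini-Hochberg adjustment at 0.05, and the word rose or fell is kept for what passed. The SD of repeat spots of 1 probe on 1 array had medians of 0.0109 (Ccl21) to 0.099 (Ccl9), against SDs between animals of a group of 0.0814 to 1.66 over all members. In Ccl9 the spot SD reached 0.264, against animal SDs of 0.0883 to 0.269. In Ccl4 it had a median of 0.0916 and reached 0.45, against animal SDs of 0.0814 to 0.723. In both genes the median spot SD was thus above the smallest animal SD. P-values measure the spread between these animals, spot noise included. Arrays correlated at r = 0.985 to 0.997 within and 0.9815 to 0.9941 between groups. On the leading axis of variation over all genes, old freely fed replicate 2 scored 51.9 and its group mates 7.27 to 13.7. Old restricted replicate 3 scored 18.98 on it and the other restricted rats -7.32 to 1.74. The animals of the old restricted group were on a second slide read in a second scan, so slide and restriction cannot be told apart. Old and young freely fed animals shared a slide and a scan but lay in different array rows, so row and age cannot be told apart.

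In the genome, 8 of the 10 genes lie on chromosome 10 and 2 on chromosome 5. In the annotation order, no other coding gene stands between Ccl2, Ccl7 and Ccl11, and none between Ccl5, Ccl9, Ccl6, Ccl3 and Ccl4, with 29 coding genes between those blocks. Ccl19 and Ccl21 are separated by 1 coding gene. Promoter sequences for 5 of the 10 were in the RefSeq table used (build GRCr8), each running from 250 bases before to 50 bases after the annotated start. Those of Ccl7, Ccl6 and Ccl9 are shown because these genes fell together with restriction, as described further on. They are written 5′ to 3′ on the strand of the gene, and capitals mark matches, on either strand, to the AP-1 motif TGANTCA, the PU.1 core GAGGAA, the TATA box TATAAA, the C/EBP motif TTGCNNAA or the NF-kB consensus. The Ccl7 promoter is chr10:67513845-67514144 on the plus strand, the Ccl6 promoter chr10:68883317-68883616 on the minus strand and the Ccl9 promoter chr10:68868828-68869127 on the minus strand.
Ccl7: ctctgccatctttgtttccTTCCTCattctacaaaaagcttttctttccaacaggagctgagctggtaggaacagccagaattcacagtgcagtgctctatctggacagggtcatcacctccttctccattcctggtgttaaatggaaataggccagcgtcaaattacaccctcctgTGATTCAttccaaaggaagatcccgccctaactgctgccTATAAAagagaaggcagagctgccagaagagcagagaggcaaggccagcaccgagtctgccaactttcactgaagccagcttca
Ccl6: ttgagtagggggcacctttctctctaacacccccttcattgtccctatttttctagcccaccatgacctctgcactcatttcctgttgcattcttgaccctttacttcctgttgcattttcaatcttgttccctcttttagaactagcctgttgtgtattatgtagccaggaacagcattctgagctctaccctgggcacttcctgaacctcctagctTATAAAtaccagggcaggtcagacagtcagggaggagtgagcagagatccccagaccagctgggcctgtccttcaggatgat
Ccl9: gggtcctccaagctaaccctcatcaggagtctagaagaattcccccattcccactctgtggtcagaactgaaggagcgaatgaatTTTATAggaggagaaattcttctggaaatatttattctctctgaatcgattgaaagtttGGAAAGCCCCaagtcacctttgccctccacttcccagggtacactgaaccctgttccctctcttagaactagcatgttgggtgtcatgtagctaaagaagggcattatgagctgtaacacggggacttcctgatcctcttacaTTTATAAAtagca

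The Ccl7 window held a TATA box beginning 34 bases before the start, an AP-1 match 73 bases before it and a PU.1 core on the opposite strand 231 bases before it. The Ccl6 window held a TATA box 32 bases before its start and no other match. The Ccl9 window held an NF-kB match on the opposite strand 106 bases before the start, a TATA match on the opposite strand 165 bases before it, and a pair of overlapping TATA matches on either strand that begin 37 and 39 bases after it. A local alignment paired bases 34 to 229 of the Ccl6 window with bases 104 to 300 of the Ccl9 window at 69.5% identity over 190 aligned bases, against 50.7% to 66.1% for the other pairs among the 5 windows. Of all 33469 promoters in the table, 14.2% hold a TATA match, 27.6% a PU.1 core, 10.6% a C/EBP match, 7.33% an AP-1 match and 4.18% an NF-kB match. The Ccl21 window held 1 PU.1 core and the Ccl19 window none of the 5 motifs, and C/EBP was matched in none of the 5 windows. Near their ends, the aligned stretches of Ccl6 and Ccl9 hold the Ccl6 TATA box, before its start, and Ccl9 TATA matches, after its start. Distances from the annotated starts may therefore not compare between these genes. The motif matches describe letters in a window and not binding.

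The first question was what food restriction did in old bladders. Of the 10 genes, 6 fell in old restricted against old freely fed rats and 0 rose, where 2.02% of all genes tested fell. The 6 were both monocyte chemoattractants, Ccl2 and Ccl7, the macrophage inflammatory proteins Ccl3 and Ccl4, and the myeloid chemokines Ccl6 and Ccl9. All 10 changes were negative, with a median of -1.22 on the log2 scale (range -2.06 to -0.26), against a median of 0.0246 over all genes tested. In 7 of 10 every restricted animal lay below every freely fed one, against 6.05% of all genes in that direction. At an unadjusted p under 0.05, 8 were lower, against 9.16% of all genes. The members were chosen with earlier results of these data known. The shares set beside member counts, here and further on, are therefore descriptions and not a test.

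Ccl2, the main chemoattractant of blood monocytes, had levels of -1.52, -2.08, -0.61 and -1.56 in old restricted rats and 0.56, -0.25, 0.22 and 0.38 in old freely fed rats. The groups did not overlap, and the nearest animals were restricted replicate 3 and freely fed replicate 2. Ccl2 fell by 1.67 on the log2 scale (SE 0.29, adjusted p = 0.012, limma), to a level 3.18-fold lower. Its probe is printed on 10 spots, whose SD on an array was 0.0304 to 0.106.

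Ccl7, its neighbour in the genome and also a Ccr2 ligand, had levels of -2.51, -3.21, -1.49 and -2.74 in restricted and -0.9995, -1.02, -1.19 and -1.43 in freely fed old rats. Restricted replicate 3, the highest of its group, lay just under the lowest freely fed animal. Ccl7 fell by 1.32 (SE 0.30, adjusted p = 0.036, limma), or 2.5-fold. The restricted rats were spread more widely, with an SD of 0.73 against 0.20 in the freely fed old rats, and replicate 3 was their highest for both Ccl2 and Ccl7.

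Ccl3, macrophage inflammatory protein 1 alpha, had levels of -3.23, -2.77, -2.62 and -3.46 in restricted and -1.53, -1.34, -1.89 and -1.83 in freely fed old rats. The groups were well separated, and the gene fell by 1.37 (SE 0.18, adjusted p = 0.0041, limma), or 2.59-fold, the smallest adjusted p of the 10 genes. Like Ccl2 it is printed on 10 spots per array, with a spot SD of 0.0363 to 0.109.

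Ccl4, macrophage inflammatory protein 1 beta, lay at -4.83, -5.02, -4.93 and -4.88 in restricted and -3.52, -2.50, -4.03 and -4.04 in freely fed old rats. The restricted animals were tightly grouped below all freely fed ones, among which replicate 2 was highest. Ccl4 fell by 1.39 (SE 0.27, adjusted p = 0.021, limma), or 2.63-fold. It was dim, at 2.3 to 5.9 log2 units above the lowest signal that counts as well above background on the same array, and normexp background correction gave a change of -0.91.

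Ccl5, or Rantes, a product of activated T and NK cells among others, lay at -0.10, 0.03, 0.48 and -0.31 in restricted and 1.65, 4.54, 1.03 and 1.11 in freely fed old rats. Every restricted animal was below every freely fed one, and freely fed replicate 2 stood far above its group. Its log2 change of -2.06 (SE 0.61, 95% interval -3.40 to -0.72) was the most negative of the 10, and it did not pass (adjusted p = 0.091, limma). Without freely fed replicate 2 the change was -1.24 and passed (SE 0.21, adjusted p = 0.015, limma).

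Ccl6 lay at -0.95, -1.02, -1.02 and -1.29 in restricted and 0.22, 0.83, -0.54 and -0.30 in freely fed old rats. The restricted rats differed little among themselves (SD 0.15), and the freely fed ones varied more (SD 0.61) but all lay higher. Ccl6 fell by 1.12 (SE 0.24, adjusted p = 0.029, limma), or 2.17-fold.

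Ccl9, whose genomic neighbours are Ccl5 and Ccl6, lay at -5.66, -5.69, -5.74 and -5.86 in restricted and -4.86, -4.79, -5.37 and -5.15 in freely fed old rats. The groups did not overlap, and the gene fell by 0.70 (SE 0.14, adjusted p = 0.023, limma), or 1.62-fold. Of the 10 genes it came closest to background, at 1.26 to 3.61 log2 units above the lowest signal counted as well above it, and its change was -0.41 with normexp.

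The other 3 members had smaller changes that did not pass. Ccl11, the eosinophil chemoattractant, lay at 1.92, 2.39, 2.61 and 2.44 in restricted and 2.53, 2.91, 2.46 and 2.51 in freely fed old rats, with a log2 change of -0.26 (95% interval -0.82 to 0.29, adjusted p = 0.59, limma). The groups overlapped through restricted replicate 3. Ccl19 lay at 0.02, -0.30, 0.12 and -0.19 in restricted and 0.32, 0.24, 0.10 and 0.12 in freely fed old rats, with a change of -0.28 (95% interval -0.48 to -0.08, adjusted p = 0.11, limma). Restricted replicate 3 again overlapped the freely fed group. Ccl21 lay at 2.08, 1.63, 2.23 and 1.77 in restricted and 2.84, 1.96, 2.12 and 2.06 in freely fed old rats, with a change of -0.32 (95% interval -0.71 to 0.08, adjusted p = 0.35, limma). These intervals leave room for changes of either size or sign except for Ccl19, whose interval lay below 0 before adjustment over all genes.

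**Figure D1:**
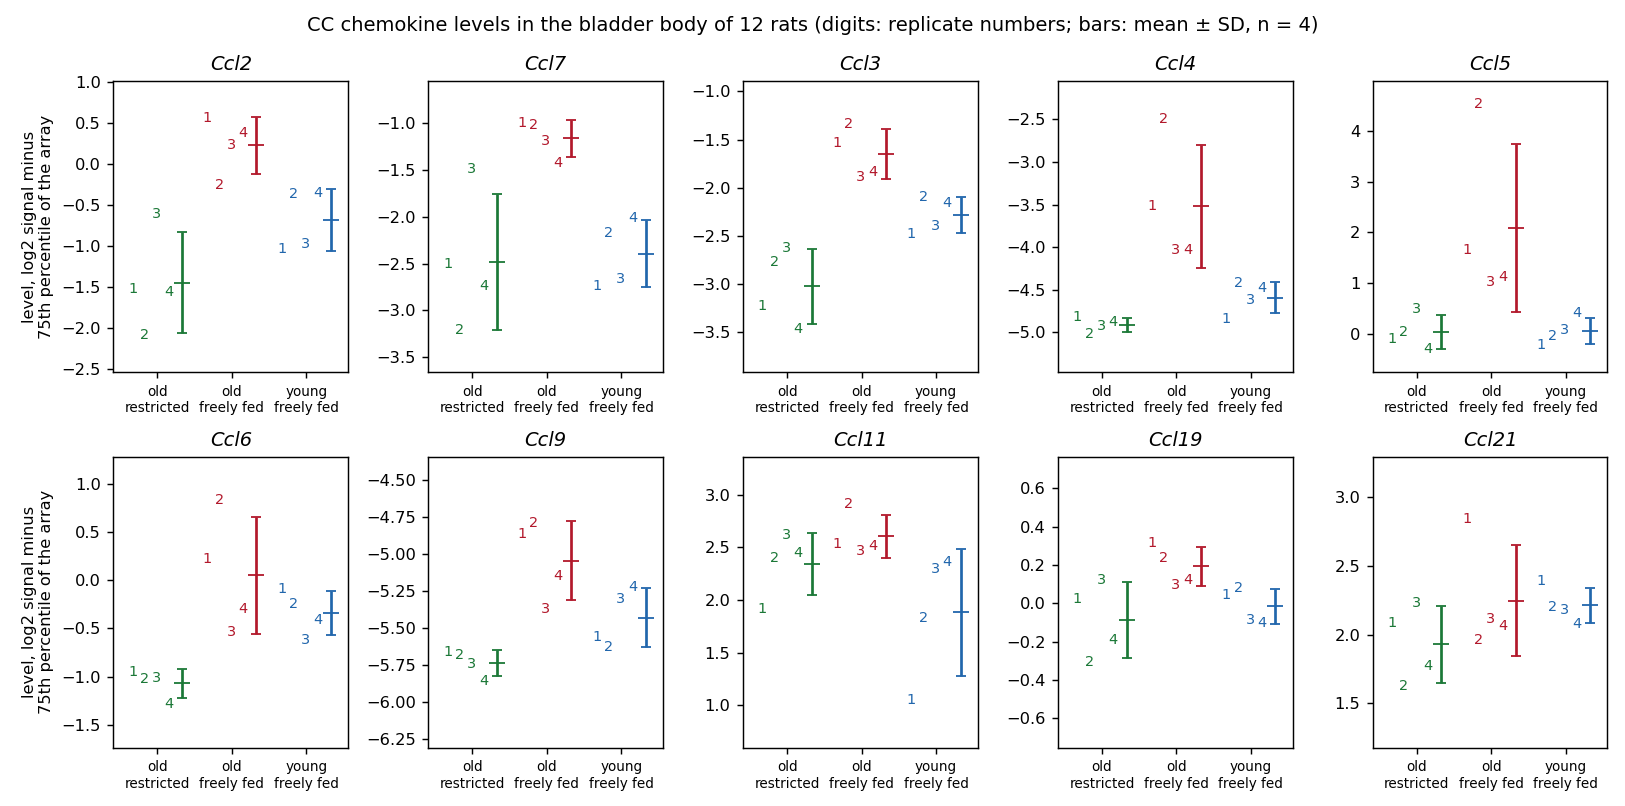
Level of each CC chemokine gene (y axis, log2 signal minus the 75th percentile of the array, with a scale of its own in each panel) in old restricted, old freely fed and young freely fed rats; digits are replicate numbers and bars give the mean ± SD of 4 animals. In Ccl2, Ccl3, Ccl4, Ccl5, Ccl6, Ccl7 and Ccl9 all 4 restricted animals lie below all 4 old freely fed animals, and the highest Ccl5 point, at 4.54, is old freely fed replicate 2.

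Ccl2 and Ccl3 passed whichever animal was omitted (adjusted p 0.0036 to 0.037 and 0.0025 to 0.016 over all alternatives, limma). Ccl4 did not pass without restricted replicates 2 or 4 (change -1.40 to -1.36, adjusted p = 0.055 to 0.061, limma), and lay at the threshold without freely fed old replicate 1 (adjusted p = 0.05, limma). Ccl6 did not pass without freely fed old replicate 1 or any 1 of the restricted rats (-1.16 to -1.05, adjusted p = 0.053 to 0.081, limma). Ccl7 did not pass without young replicate 2, freely fed old replicates 1, 2 or 3, or restricted replicates 1, 2 or 4 (-1.33 to -1.08, adjusted p = 0.052 to 0.092, limma). Ccl9 did not pass without freely fed old replicates 1 or 2 or restricted replicates 2, 3 or 4 (-0.71 to -0.61, adjusted p = 0.051 to 0.067, limma). The number that fell was 3 without freely fed old replicate 1 and 2 without restricted replicate 2 or 4.

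The second question was what age did in freely fed rats. Of the 10 genes, 1 rose in old against young freely fed rats and 0 fell, where 1.63% of all genes tested rose. All 10 changes were positive, with a median of 0.68 (range 0.03 to 2.03) against -0.0455 over all genes. In 7 of 10 every old animal lay above every young one, against 5.69% of all genes in that direction, and 8 were higher at an unadjusted p under 0.05, against 8.32%. This comparison shares its 4 old freely fed animals with that of restriction, so the opposite signs in the pair of comparisons are not independent of each other.

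Ccl7 was the gene that rose. Its levels were -0.9995, -1.02, -1.19 and -1.43 in old and -2.73, -2.17, -2.66 and -2.01 in young freely fed rats, without overlap. The rise was 1.23 (SE 0.30, adjusted p = 0.046, limma), or 2.35-fold. It lay close to the threshold. Of 12 fits with 1 animal omitted it passed in 2, those without restricted replicates 2 or 3, and in the other 10 the change was 1.12 to 1.36 with adjusted p = 0.052 to 0.1 (limma). The number of members that rose was 0 without young replicates 1, 2, 3 or 4, old freely fed replicates 1 or 3, or restricted replicates 1 or 4, 2 without old freely fed replicate 2 (Ccl4 and Ccl5), and 2 without restricted replicate 3 (Ccl2 and Ccl7). Without old freely fed replicate 4 it was 1, Ccl4 in place of Ccl7.

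Ccl2 lay at -1.03, -0.37, -0.98 and -0.36 in the young, all below the old freely fed range of -0.25 to 0.56, and its log2 change of 0.91 (SE 0.29, adjusted p = 0.087, limma) did not pass. Ccl3 lay at -2.48 to -2.09 in young animals and also below all old ones, with a change of 0.63 (SE 0.18, adjusted p = 0.071, limma). For Ccl4 the old freely fed rats, at -4.04 to -2.50, lay above the young, at -4.84 to -4.43, with a change of 1.07 (SE 0.27, adjusted p = 0.052, limma). Ccl4 passed without old freely fed replicate 2 (0.73, adjusted p = 0.036, limma) and without replicate 4 (1.24, adjusted p = 0.042, limma). Its young values were the dimmest of the 3 groups relative to background, at 2.3 to 2.5 log2 units above the lowest signal counted, and normexp gave a change of 0.73.

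For Ccl5 the old freely fed rats lay at 1.03 to 4.54 and the young at -0.22, -0.04, 0.08 and 0.40, again without overlap. The change of 2.03 (SE 0.61, 95% interval 0.69 to 3.37, adjusted p = 0.079, limma) did not pass, and without old freely fed replicate 2 it was 1.21 and passed (adjusted p = 0.024, limma). Ccl11 lay at 2.46 to 2.91 in old and at 1.05, 1.83, 2.29 and 2.36 in young freely fed rats, with a change of 0.72 (SE 0.25, adjusted p = 0.11, limma). Young replicate 1 was low for Ccl11, and the change was 0.45 without it. Ccl19 lay at 0.10 to 0.32 in old and -0.10 to 0.08 in young rats, without overlap but with a change of only 0.21 (SE 0.09, adjusted p = 0.18, limma).

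In the other 3 genes old and young freely fed rats overlapped. Ccl6 changed by 0.39 (95% interval -0.13 to 0.92, adjusted p = 0.34, limma) with young levels of -0.62 to -0.09, and by 0.13 without old freely fed replicate 2. Ccl9 changed by 0.39 (95% interval 0.08 to 0.69, adjusted p = 0.12, limma) with young levels of -5.63 to -5.22, and by 0.17 with normexp. Ccl21 changed by 0.03 (95% interval -0.36 to 0.43, adjusted p = 0.92, limma), and the sign turned without old freely fed replicate 1 (-0.16), its highest animal.

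**Figure D2:**
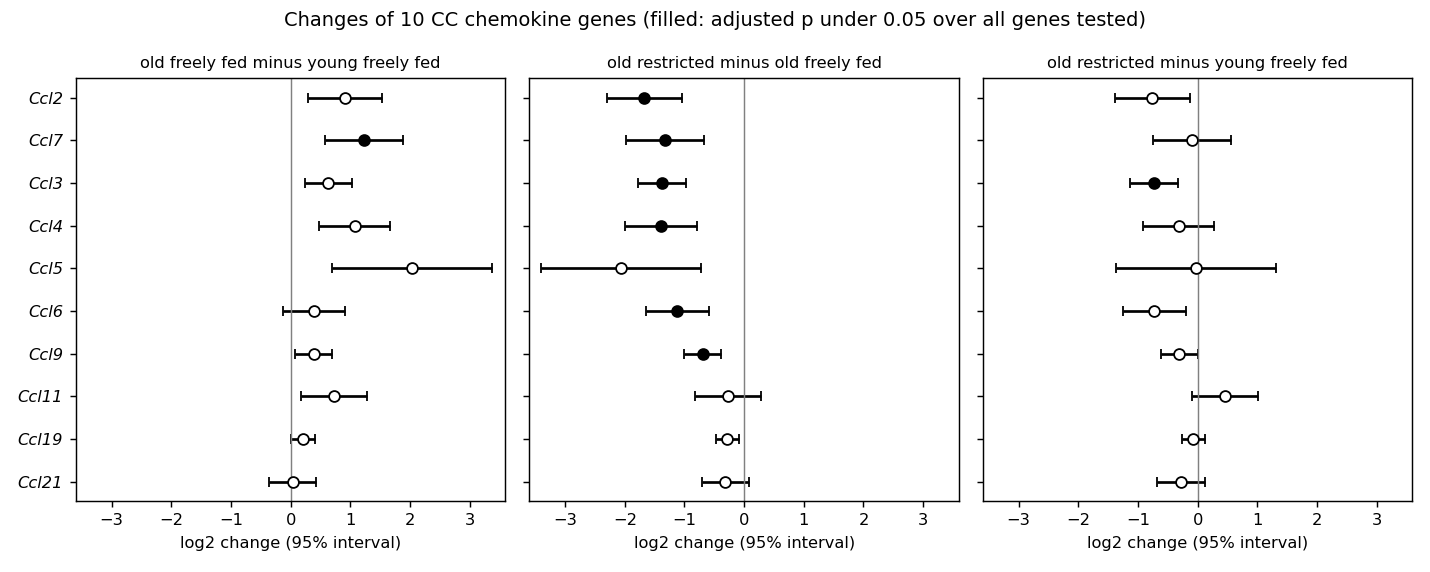
Log2 change of each gene (x axis) with its 95% interval in the comparisons of old with young freely fed, old restricted with old freely fed, and old restricted with young freely fed rats; filled points passed at adjusted p under 0.05. The points of the first panel are all above 0 with 1 filled (Ccl7), those of the second all below 0 with 6 filled, and those of the third mostly below 0 with 1 filled (Ccl3).

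The third comparison set restricted old rats against young freely fed rats, which asks where the restricted animals stood relative to young tissue. Of the 10 genes 1 fell and 0 rose, where 5.99% of all genes tested fell, so the members' share was near the background. The median change was -0.30, against -0.0124 over all genes, with 9 negative and 1 positive. In 3 genes all restricted animals lay below all young ones (Ccl3, Ccl6 and Ccl9), against 10.8% of all genes, and 4 were lower at an unadjusted p under 0.05, against 16% of all genes.

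Ccl3 was the gene that fell, by 0.74 (SE 0.18, adjusted p = 0.031, limma), or 1.67-fold, with levels of -3.46 to -2.62 in restricted and -2.48 to -2.09 in young rats. It missed the threshold when young replicate 2 or 4 or restricted replicate 1 or 4 was omitted (-0.70 to -0.59, adjusted p = 0.061 to 0.077, limma), which leaves a count of 0. Ccl6, at -1.29 to -0.95 in restricted and -0.62 to -0.09 in young rats, had a change of -0.73 (SE 0.24, adjusted p = 0.079, limma). It passed without old freely fed replicate 2 (adjusted p = 0.019, limma), an animal outside this pair of groups that enters through the shared error. Ccl2 changed by -0.76 (SE 0.29, adjusted p = 0.12, limma), or -1.04 without restricted replicate 3, when it passed (adjusted p = 0.038, limma). In Ccl9 the change was -0.31 (adjusted p = 0.19, limma).

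For Ccl5, Ccl7 and Ccl19 the restricted rats lay within or around the young range. The changes were -0.03 (95% interval -1.37 to 1.31) for Ccl5, -0.09 (95% interval -0.75 to 0.57) for Ccl7 and -0.07 (95% interval -0.27 to 0.13) for Ccl19. Ccl4 changed by -0.32 (95% interval -0.92 to 0.28) and Ccl21 by -0.28 (95% interval -0.68 to 0.12). Ccl11 was the member with a positive change, of 0.46 (95% interval -0.09 to 1.01, adjusted p = 0.27, limma). The interval of Ccl5 uses an error pooled over all 12 arrays, old freely fed replicate 2 included.

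Animals of the same group did not rank alike for every member. Among old freely fed rats, replicate 2 was highest for 6 of the 10 genes, namely Ccl3, Ccl4, Ccl5, Ccl6, Ccl9 and Ccl11, and lowest for Ccl2 and Ccl21. Replicate 1 was highest for the other 4, namely Ccl2, Ccl7, Ccl19 and Ccl21. Replicate 3 of the restricted rats was highest for 7, namely Ccl2, Ccl3, Ccl5, Ccl7, Ccl11, Ccl19 and Ccl21, and restricted replicates 2 and 4 were lowest for 5 and 4. As deviations from the group means over the 12 arrays, Ccl2 and Ccl7 correlated at r = 0.84, and at 0.97 without old freely fed replicate 2. Ccl4 and Ccl5 correlated at r = 0.93, and at 0.54 without that animal. Ccl19 and Ccl21, the Ccr7 ligands, correlated at r = 0.75, and at 0.87 without it, while Ccl2 and Ccl5 were at -0.21, and at 0.63 without it. These are descriptions over 12 arrays that share their scaling.

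**Figure D3:**
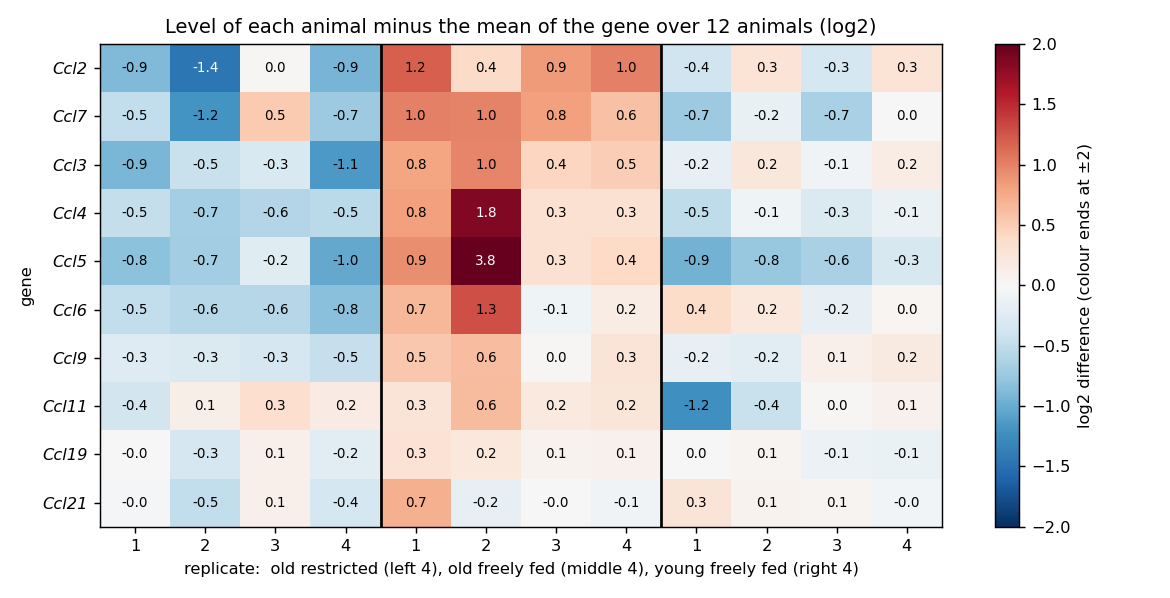
Difference of each animal's level from the 12-animal mean of the gene (log2, colour and printed value) for old restricted, old freely fed and young freely fed rats from left to right, with replicate numbers on the x axis. Old freely fed replicate 2 carries the highest Ccl4 and Ccl5 values and a Ccl2 value that is the lowest of its group, and restricted replicate 3 is the restricted animal with the highest Ccl2 and Ccl7.

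Over all 12 arrays, the genes outside the family whose levels ran most like those of the members were chosen by Pearson's r among 11114 named genes well above background on every array. Ccl5 was most like Ubd, a ubiquitin-like gene induced by interferon gamma and tumour necrosis factor (r = 0.99), and Fmnl1, a formin of leukocytes (r = 0.99). Ccl4 was most like Slc15a3, a lysosomal peptide transporter (r = 0.97), and Bcl2a1, an anti-apoptotic relative of Bcl2 (r = 0.97). Ccl6 was most like Cd200r1, an inhibitory receptor of myeloid cells (r = 0.97), and Rasal3 (r = 0.95). Ccl7 was most like Itga4, the alpha 4 integrin chain of leukocytes (r = 0.95), and Zc3h12d (r = 0.94). Ccl3 was most like Ralgdsl1 (r = 0.95) and Lpxn, which encodes the adhesion protein leupaxin (r = 0.94). Ccl2 was most like Ralgdsl1 (r = 0.92) and Pf4, platelet factor 4 (r = 0.89). Ccl9 was most like Lpxn (r = 0.94) and Napsa (r = 0.92). Ccl11 was most like Mertk, a receptor for engulfing dead cells (r = 0.91), and Nceh1 (r = 0.905). Ccl19 was most like Itga4 (r = 0.89) and Arhgap18 (r = 0.88), and Ccl21 like Plgrkt (r = 0.87) and the noncoding RNA H19 (r = 0.87). The points share groups and scaling, and these genes are the extremes of 11114.

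Some receptors of the family were examined beside the ligands. Ccr2, the receptor of Ccl2 and Ccl7, had a log2 change of -0.55 with restriction (SE 0.18, adjusted p = 0.12, limma) and 0.27 with age (adjusted p = 0.39, limma). It was dim, at -6.87 to -6.49 in restricted and -6.66 to -6.24 in young rats. The lowest levels counted as well above background were -7.73 to -7.46 on the restricted and -7.14 to -6.89 on the young arrays. Ccr1, the receptor of Ccl3 and Ccl5, changed by -0.01 with restriction (adjusted p = 0.98, limma), with means of -3.62 in restricted, -3.61 in old freely fed and -3.996 in young rats. Ccr7 changed by -0.35 with restriction (adjusted p = 0.14, limma). Ccr3, the receptor of Ccl11, was well above background on 2 of 4 arrays of old freely fed rats and on 0 of 4 in each other group, so it was not tested, and Ccr4 was above it on 0 arrays.

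Of 10 other CC ligands 5 were tested and 0 passed in any comparison (limma). At an unadjusted p under 0.05, 3 were lower with restriction, against 9.16% of all genes, and 1 was higher with age, against 8.32%. At that p 0 changed between restricted and young rats, where 16% of all genes were lower. Ccl22, a ligand of Ccr4, lay at -4.29, -4.31, -4.33 and -4.30 in restricted and -3.47, -3.49, -4.10 and -4.26 in old freely fed rats, with a change of -0.48 (adjusted p = 0.12, limma). Ccl12, a Ccr2 ligand in the mouse, lay at -6.75, -6.84, -4.32 and -6.96 in restricted and -4.68, -1.52, -5.45 and -4.94 in old freely fed rats, with a change of -2.07 (adjusted p = 0.17, limma). It was well above background on 3 of 4 restricted arrays, and the highest animal of each group was restricted replicate 3 and freely fed replicate 2. Ccl17 changed by -0.89 (adjusted p = 0.24, limma). Ccl24, another eotaxin, lay at 3.26 to 3.35 in restricted, 3.19 to 3.35 in old freely fed and 3.21 to 3.44 in young rats, with a change of 0.02 with restriction (SE 0.05, adjusted p = 0.86, limma). Its range across the 12 animals was narrow.

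**Figure D4:**
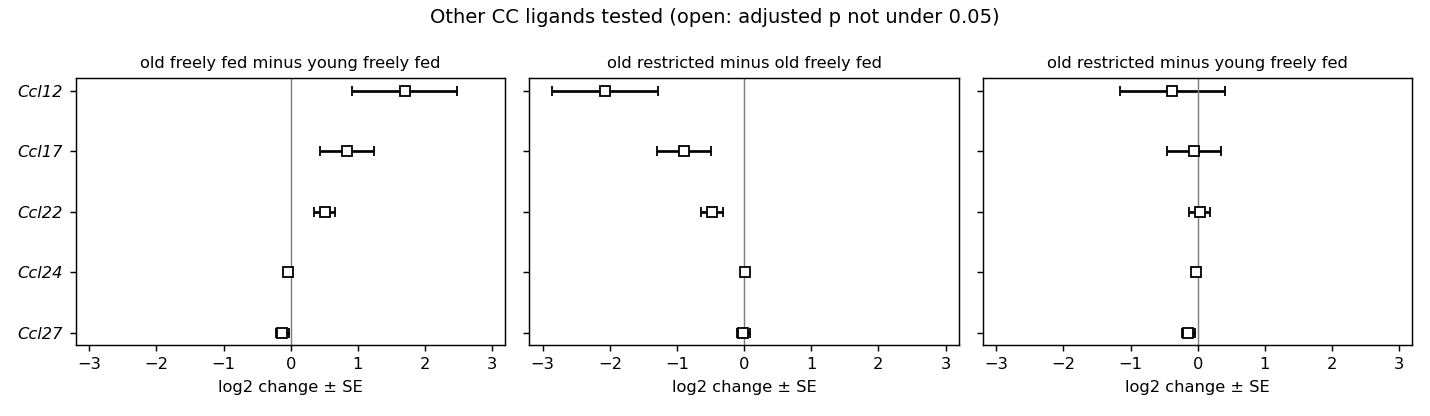
Log2 change ± SE (x axis) of the 5 other CC ligands tested, in the comparisons of old with young freely fed, old restricted with old freely fed, and old restricted with young freely fed rats. All points are open, since 0 passed, and Ccl24 lies next to 0 in each panel.

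Among 13 genes of CC chemokine inducers and of the NF-kB arm, 8 were tested. The list includes the NF-kB inhibitors Nfkbia, which was tested, and Tnfaip3, which was not. With age 1 rose, Il1a, which encodes interleukin 1 alpha, and with restriction 0 passed (limma; 2 were lower and 0 higher at unadjusted p under 0.05). Of all genes, 1.63% rose with age and 9.16% were lower with restriction at that unadjusted p. Il1a was well above background on 1 of 4 young arrays, with levels of -5.48, -4.22, -2.10 and -6.29 in old freely fed and -6.87, -7.53, -7.45 and -7.23 in young rats, a change of 2.75 (SE 0.67, adjusted p = 0.045, limma). It did not pass without any 1 of the young or restricted rats or without old freely fed replicate 2 (2.646 to 2.88, adjusted p = 0.053 to 0.10, limma). With normexp background correction its change was 1.41 (adjusted p = 0.11, limma). It also did not pass with quantile scaling, alone or after normexp, without limma's trend of variance on brightness, with the replicate block or with only the 8 arrays compared (adjusted p = 0.053 to 0.116, limma). All old freely fed animals lay above all young ones. Il1b lay at -4.13, -3.16, -3.13 and -3.17 in restricted and -1.97, -2.72, -1.91 and -2.34 in old freely fed rats, a change of -1.16 (SE 0.36, adjusted p = 0.099, limma) with groups that did not overlap. Tnf changed by -0.55 with restriction (adjusted p = 0.32, limma). Rela, an NF-kB subunit, changed by 0.03 with restriction (SE 0.05, adjusted p = 0.70, limma). Il6 was well above background on 0 arrays and Ifng on 1.

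Markers of leukocytes were examined beside the ligands, and most did not pass with restriction. Their part in the chemokine differences was not tested. Of 12 T and NK cell markers tested, 6 rose with age (Cd3d, Cd2, Cd5, Cd8b, Lck and Klrd1), against 1.63% of all genes. With restriction 1 fell, against 2.02% of all genes. It was Cd3d, whose protein signals from the T cell receptor, by 0.71 (adjusted p = 0.016, limma). Cd3d did not pass there without restricted replicate 2 (-0.66, adjusted p = 0.052, limma). With age Cd3d and Cd2 passed whichever animal was omitted, while Cd5, Cd8b, Lck and Klrd1 missed the threshold in 5, 6, 7 and 9 of 12 such fits. Cd5 was well above background on 2 of 4 young arrays. Over the other settings the age change was as low as 0.82 for Cd3d (0.88 in the main fit), 0.56 for Cd2 (1.21) and 0.62 for Cd5 (1.41). It was as low as 0.40 for Cd8b (0.77), 0.48 for Lck (0.91) and 0.98 for Klrd1 (1.66). At unadjusted p under 0.05, 10 of 12 markers were lower with restriction, against 9.16% of all genes, and 11 higher with age, against 8.32%. The medians of the 12 markers were -0.76 with restriction and 0.90 with age. Their summed linear signal, in units of the 75th percentile of the array, was 1.61 to 2.12 in restricted, 2.42 to 7.58 in old freely fed and 1.44 to 1.75 in young rats, where replicate 2 had the 7.58 and no other old freely fed rat more than 2.62. Such sums, here and further on, are weighted towards the brightest genes of a list. Of 12 macrophage markers 0 passed in any comparison (limma), with medians of -0.25 with restriction and 0.47 with age. At an unadjusted p under 0.05, 3 were lower with restriction, against 9.16% of all genes, and 5 higher with age, against 8.32%. The sum over the 12 was 45.3 to 60.0 in restricted, 54.5 to 118.9 in old freely fed and 41.5 to 50.7 in young rats, again highest in old freely fed replicate 2. Cd68, a lysosomal macrophage protein, changed by -0.69 and Lyz2 by -0.67 with restriction, while Csf1r changed by -0.07 and Mrc1 by 0.02, and none of these passed (limma).

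Of 6 neutrophil markers tested, Csf3r, Cxcr2 and Ngp were well above background on every array of old freely fed rats alone and entered the test only through them, so no count over the list is read. Cxcr2, above background on 3 of 4 restricted arrays, had mean levels of -7.02 in restricted, -5.89 in old freely fed and -6.65 in young rats. Since it entered the test only through the group where it was highest, its p-value is not read. S100a8 and S100a9, above background on all arrays, differed by -1.17 and -1.53 with restriction (adjusted p = 0.15 and 0.078, limma). The sum over the list was 0.0827 to 0.116 in restricted, 0.145 to 0.382 in old freely fed and 0.0905 to 0.183 in young rats. It includes Csf3r, Cxcr2 and Ngp and is not read as a difference between groups either. Of 9 eosinophil and mast cell markers 0 passed with restriction (limma). At unadjusted p under 0.05, 4 were lower, against 9.16% of all genes, and 0 higher. The eosinophil peroxidase gene Epx was well above background on 0 arrays. The sum over the 9 was 0.674 to 0.813 in restricted, 0.751 to 1.85 in old freely fed and 0.828 to 1.62 in young rats. Of 6 endothelial markers 1 fell with restriction, where 2.02% of all genes fell. It was the vessel marker Pecam1, by 0.36 (adjusted p = 0.047, limma), while the lymphatic markers Lyve1 and Flt4 changed by 0.28 and -0.01. The sum over the 6 endothelial markers was 15.04 to 16.04 in restricted, 15.3 to 19.0 in old freely fed and 13.8 to 16.4 in young rats. With 1 animal omitted, Pecam1 passed without young replicate 4 and without old freely fed replicate 4, and missed the threshold in the other 10 fits (-0.40 to -0.28, adjusted p = 0.054 to 0.12, limma).

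Of 6 markers tested of fibroblasts, the stromal cells that make Ccl2, Ccl7 and Ccl11 in many tissues, 0 passed with restriction (limma). At unadjusted p under 0.05, 1 was lower, against 9.16% of all genes, and 1 higher. The sum over the 6 was 139.4 to 149 in restricted, 104.4 to 152.8 in old freely fed and 122.8 to 186.6 in young rats. With age 0 passed as well (limma), with a median change of -0.35, against -0.0455 over all genes. At unadjusted p under 0.05, 5 were lower with age and 0 higher. The share of all genes lower with age at that p is not given here, so this count is not read as a result. Pi16 fell in restricted old rats relative to young ones, by 0.47 (adjusted p = 0.019, limma), and missed the threshold without young replicate 2 or restricted replicates 2 or 3 (-0.44 to -0.43, adjusted p = 0.0505 to 0.0603, limma). Of the markers of prostate and seminal vesicle, glands next to the bladder, 2 of 8 were tested, and their sum was 0.0173 to 0.0243 in restricted, 0.0153 to 0.0698 in old freely fed and 0.0594 to 0.394 in young rats. Andpro, a marker of these glands, was well above background on 0 of 4 restricted, 1 of 4 old freely fed and 4 of 4 young arrays, and entered the test only through the young rats. Its mean measured level was -9.42 in restricted, -9.01 in old freely fed and -3.41 in young rats. The lowest levels counted as well above background were -7.73 to -7.46 on the restricted and -8.40 to -7.81 on the old freely fed arrays. Since Andpro entered through the group where it was highest, its p-values are not read. The sum for these glands includes Andpro and is not read as a difference between groups either.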

How the data were processed

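Total RNA was labelled with Cy3 and hybridised to 1-colour Agilent rat arrays, per the labels' protocols. The deposited spot intensities were made by the authors with Agilent Feature Extraction 10.7 (design build rn4), which subtracted background and detrended within each array without scaling between arrays, per the file headers and the submitters' processing notes. The deposited flags mark each spot as well above background, saturated or an outlier. The series' table of processed intensities equalled the scanner files in 100% of spots (relative tolerance 1e-06), so it is on a linear scale without centring, in arrays' medians of 620 to 774, and was not used further.

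The 75th percentile of the non-control spots was subtracted on the log2 scale (deposited signals of 3993 to 4892 at that percentile). No spot was saturated. Outlier spots were left out, except where a probe had no other (91 averages), and log2 spots were averaged for each of 30367 probes, of which 21659 to 24644 an array exceeded background clearly (flag set on over 0.5 of their spots). Names came from RefSeq accessions matched to the GRCr8 table (17998 probes, 15154 symbols). A probe was kept if any group had it flagged on each of its 4 arrays (23089 probes), and the brightest stood for its gene. Tests used R 4.3 and limma 3.58, with 1 linear model over 12 arrays and a brightness trend in the error (residual degrees of freedom 9, prior 2.72), with two-sided p-values and 95% intervals from that error. Replicate numbers are those of the source names in the labels, and titles number the animals differently. The number of arrays limits the precision. The steps were tested on simulated data.

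The members and gene lists were chosen with earlier results of these data known. Named genes are all members, list genes past the threshold and, for each member, the 2 most similar genes, and a few others beside them were named after their values were seen. Alternatives were other scalings, normexp background correction (on the deposited median signals, since mean signals were not used here), other filters and probe rules, a fit without the trend, the 8 arrays compared alone, a replicate block and each animal left out. Leaving out old freely fed replicate 2 and old restricted replicate 3 together, and the alternatives for genes that are no members, were added after seeing the data. Some genes of the marker and receptor lists are not reported here.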

Additional observations from a re-analysis of the deposited data

Results flagged for a closer look

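Ccl11 of old freely fed replicate 2 had a level of 2.91, against 2.46 to 2.53 in the other 3 animals of its group. Its gap to the next animal was 0.84 of the group's range, above Dixon's 95% critical value for 4 samples. It was the 1 such case among 30 groups examined, and chance gives about 1 in 20. Ccl11 did not pass in any comparison with this animal in the fit.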

How the results depend on the processing

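Directions held in most settings. With restriction 6 genes fell, and 2 to 6 did when 1 animal was left out. The same 6 fell with quantile scaling, median centring, normexp alone or with quantile scaling, no filter, the filter on all 12 arrays, all probes, averaged probes and no brightness trend. Fitting the 8 arrays compared alone left 3 (Ccl2, Ccl3 and Ccl9). With age 1 gene rose, and 0 to 2 did when 1 animal was left out. It was 2 with median centring and with the filter on all 12 arrays, 3 with no filter, and 0 without the brightness trend. For restricted against young rats 1 gene fell, 0 to 2 when 1 animal was left out, and 2 with the 8 arrays alone. Without old freely fed replicate 2 and restricted replicate 3 together, chosen after seeing the data, the counts were 4 for age, 5 for restriction and 3 for restricted against young rats.

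Replicate numbers are shared by the groups but did not pair the animals: same-numbered animals' deviations correlated at -0.19 to 0.10 and 3 of 12 arrays matched best to their own number. With the number as a replicate block the counts were 0 for age, 4 for restriction (Ccl2, Ccl3, Ccl4 and Ccl6) and 2 for restricted against young rats.

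Signs turned only for changes near 0 that did not pass. With 1 animal omitted, Ccl21 with age ranged from -0.1642 to 0.1287, negative without young replicate 4 or old freely fed replicate 1. In restricted against young rats Ccl5 ranged from -0.1787 to 0.0889, positive without young replicate 4 or restricted replicates 1 or 4, and was 0.0076 with normexp and quantile scaling. Ccl7 ranged from -0.4227 to 0.1506, positive without young replicate 4 or restricted replicate 2, and Ccl19 from -0.142 to 9e-04, positive without restricted replicate 2. The causes were not tested.

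Over all genes with age, 332 rose and 428 fell (43.7% of calls higher), against 70.5% higher with quantile scaling and 71.8% with median centring, 215 and 283 with the replicate block, 236 and 204 without the trend, and 67 and 27 with 8 arrays alone. Normexp with quantile scaling gave 288 and 124, and no filter 691 and 2877. With restriction 331 rose and 413 fell (44.5% higher), against 64.1% higher with normexp and 212 and 265 with 8 arrays alone. For restricted against young rats 651 rose and 1223 fell (34.7% higher), against 48.4% higher with quantile scaling, 45.4% with normexp and quantile scaling, and 781 and 2478 with no filter. The negative control spots lay at -9.81 to -9.54 in restricted, -10.5 to -9.97 in old freely fed and -9.18 to -8.94 in young rats, so signals near background, such as those of Ccl9, are the least certain.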
